A study of Mus musculus with 8 samples.

Results

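RNA-sequencing of aortic tissue taken as an AngII infusion of 2 weeks ended was compared with that of untreated mice, across all genes. The comparison used 4 of the 8 libraries of the series, 2 from AngII mice and 2 from CTRL mice, chosen by their labels alone. Male C57BL6 mice without genetic modification received AngII at 2.8 mg/kg/d from an osmotic minipump implanted at 11 weeks of age, and were sacrificed when the infusion ended (AngII). CTRL mice were untreated littermates, matched for age according to the methods, and their labels give no time point. Each library held pooled tissue of 2 mice, so that the comparison rests on 8 mice and 2 independent pools a side. A piece of the vessel wall with all its cells was homogenized, and ribosomal RNA was removed before sequencing. The libraries of the AngII+2W and AngII+3W groups, from mice killed 2 or 3 weeks after the same infusion, were fitted in the same model. They entered its filter on low counts, its scaling and its estimate of the spread between replicates. The difference tested was that between AngII and CTRL.

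AngII constricts arteries mainly through its type 1 receptor on vascular smooth muscle cells (VSMCs). In the adult aorta these cells hold a contractile apparatus of α-smooth muscle actin, smooth muscle myosin and their regulators, and the genes of this apparatus are known targets of serum response factor and its cofactor myocardin, which act at a promoter sequence called the CArG box. Under sustained pressure or injury VSMCs can lose contractile proteins, divide and secrete matrix, while fibroblasts and macrophages of the adventitia can expand.

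The 4 libraries held between 18707435 and 21005621 counts, and mitochondrial transcripts took between 8.15% and 13% of them. Smooth muscle, endothelial, fibroblast and macrophage markers were all detected in the 4 libraries. Markers of tissue around the vessel were present too. Adipocyte genes took 1.23% and 1.57% of the counts in CTRL and 1.69% and 1.53% in AngII, and Adipoq, which encodes adiponectin, was at 543 and 722 CPM (counts per 1000000) in CTRL and 652 and 589 CPM in AngII. Genes of cardiac muscle took 0.567% and 0.264% in CTRL and 0.157% and 0.105% in AngII, in an order that puts both AngII libraries below both CTRL libraries. Among these, the atrial gene Myl7 (278, 120, 57.3 and 39.6 CPM, CTRL libraries given before AngII libraries) was well covered, as was Myh6. The ventricular Myl2 stayed at or below 1.04 CPM in all 4 libraries. Of the 14 cardiac genes 13 had a fold change below 0, and the median log2 fold change was -1.56. In 12 both AngII libraries lay below both CTRL libraries, an order that 24.9% of all genes showed. None of the 14 passed the edgeR test or was called by DESeq2, and 1 had an unadjusted p below 0.05. Skeletal muscle genes held at most 0.00751% of counts in each of the 4 libraries. The AngII+3W libraries, which entered the estimate of the spread, were uneven in both kinds of muscle. Skeletal muscle genes took 0.315% of counts in replicate 1 and 0.00117% in replicate 2, and cardiac muscle genes 0.612% and 0.0527%. The part of this in the number of genes that passed was not tested. The AngII libraries also differed from each other, since collagen genes took 2.95% of counts in the library of replicate 1 and 4.68% in that of replicate 2, and macrophage genes 0.139% and 0.231%.

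**Figure D1:**
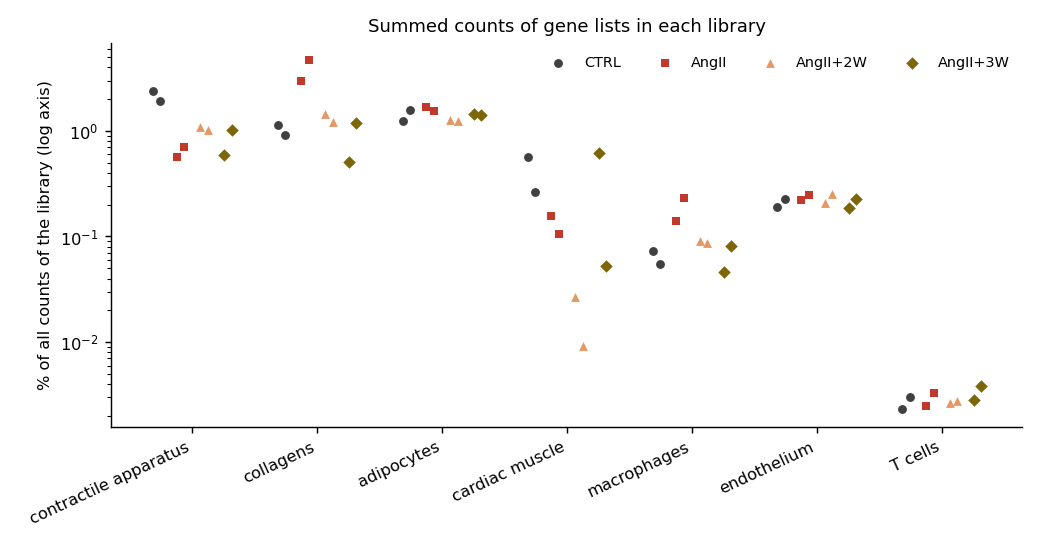
Share of all counts taken by 7 gene lists in each library, on a log axis, with 1 symbol for each of the 2 libraries of a group. AngII libraries lie below CTRL for the contractile apparatus (0.561% and 0.705% against 2.41% and 1.94%) and above CTRL for collagens and macrophages, while adipocyte, endothelial and T cell genes take similar shares.

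When the infusion ended, 877 of 17182 genes (5.10%) passed edgeR's quasi-likelihood test against CTRL, with an FDR below 0.05. Of these, 499 were higher in AngII (2.90% of all genes tested) and 378 lower (2.20%), and 861 were protein-coding. Changes over 4-fold were seen in 142 higher and 69 lower genes, and changes under 2-fold in 106 and 100. The median log2 fold change was 1.52 among the higher genes and -1.39 among the lower ones, against -0.008 over all genes. For every gene that passed, both AngII libraries lay on the same side of both CTRL libraries, an arrangement that 24.4% of all genes showed upwards and 24.9% downwards. Counts in the gene lists below are to be read against these shares. The number of genes past the threshold depended on single libraries. It was 29 without CTRL replicate 1, 351 without CTRL replicate 2, 229 without AngII replicate 1 and 0 without AngII replicate 2, where the smallest FDR was 0.0543 and 2280 genes had an unadjusted p below 0.05. In these fits the lone library of a group is assumed to vary like the others. Without a library of AngII+2W it was 280 or 282, and without a library of AngII+3W 1504 or 1492. Counts within the gene lists below moved with it and were 0 in every list without AngII replicate 2. With the summed level of cardiac muscle genes as a covariate, 734 genes passed, 310 higher and 424 lower.

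**Figure D2:**
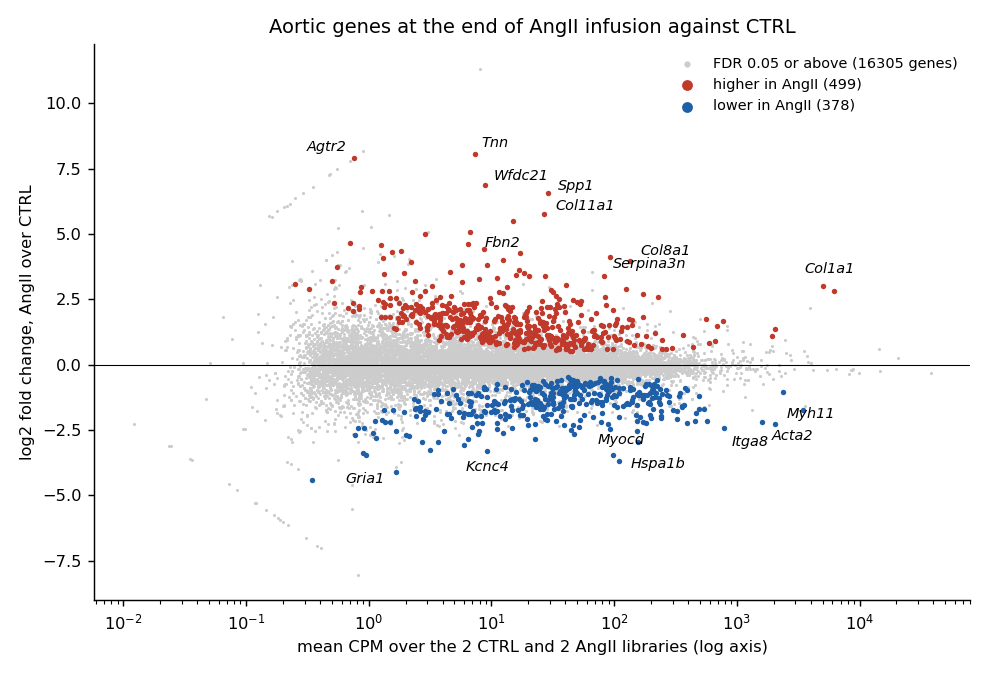
Log2 fold change of AngII over CTRL (vertical axis) against the mean CPM of the 4 libraries (horizontal log axis) for each gene tested, with the 499 higher genes in red, the 378 lower genes in blue and the rest in grey. Contractile genes such as Acta2 and Myh11 are among the most abundant lower genes, and Col1a1 is among the most abundant higher genes.

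**Figure D3:**
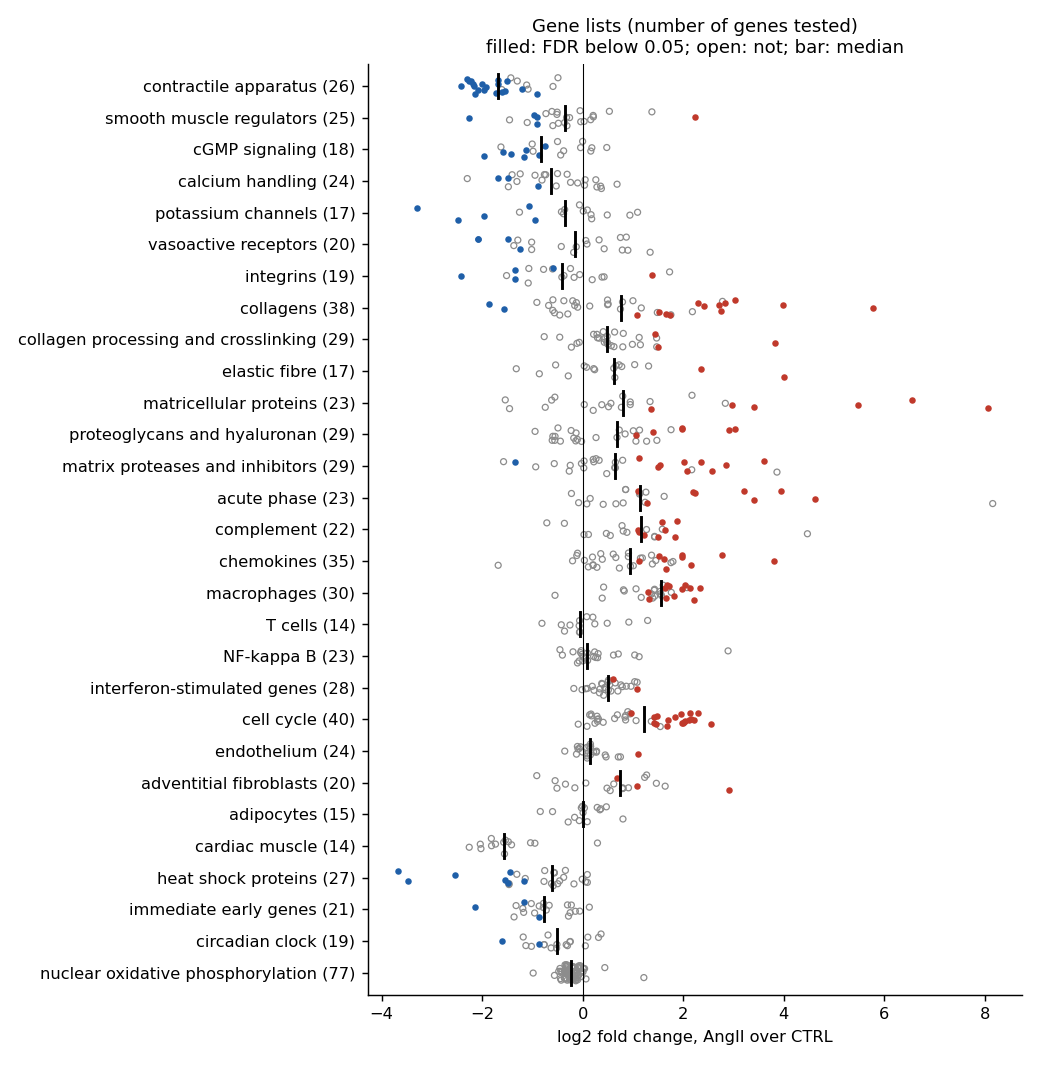
Log2 fold change of AngII over CTRL for each tested member of 29 gene lists, with genes past the FDR threshold filled (red higher, blue lower), the others open, and the median of each list as a bar. The list of the contractile apparatus has its median at -1.68 and the macrophage list at 1.55, while those of T cells and adipocytes lie near 0.

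Genes of the contractile apparatus were lower in AngII throughout. Of 26 such genes, 19 fell (73.1%, against 2.20% of all genes), none rose, and the median log2 fold change was -1.68. All 26 had a fold change below 0, down to -2.42, and in 25 both AngII libraries lay below both CTRL libraries. The largest was that of Itga8, the integrin chain α8 of VSMCs, at 1586 and 1086 CPM in CTRL and 237 and 262 CPM in AngII (log2 fold change -2.42, standard error 0.289, FDR 0.00899). Myh11, the smooth muscle myosin heavy chain, had 3854 and 2975 CPM in CTRL and 618 and 803 CPM in AngII, a fall by 2.26 on the log2 scale (FDR 0.0172). Acta2, which encodes α-smooth muscle actin, went from 3055 and 2243 CPM to 506 and 663 CPM, and its fitted level was 4.53 times higher in CTRL. Thin filament and crosslinking proteins followed the same order, with Tagln at 1036, 829, 198 and 223 CPM and Cnn1 at 338, 266, 57.1 and 71.9 CPM. Lmod1, a nucleator of actin filaments, was almost identical within groups, at 317 and 307 CPM in CTRL and 82.6 and 82.5 CPM in AngII.

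Regulators of myosin and other actin-binding proteins were among the genes of the list that fell. Myl9, the regulatory light chain of smooth muscle myosin, had 576 and 481 CPM in CTRL and 123 and 128 CPM in AngII. Ppp1r12b, a targeting subunit of the phosphatase that acts on this light chain, fell by 1.61 on the log2 scale, from 622 and 459 CPM to 173 and 180 CPM. Synpo2, which binds actin at dense bodies, fell by 2.16, and Tpm2, a tropomyosin, by 1.96. Filamin A (Flna), which links actin to the membrane, was the most abundant of the list, with 5846 and 4707 CPM in CTRL and 1376 and 1801 CPM in AngII. The order of cardiac muscle genes between the groups was the same as that of these genes. With the level of cardiac muscle genes as a covariate, fitted over all 8 libraries, 22 contractile genes were lower, with a median of -1.91. Because both kinds of genes share their order between CTRL and AngII, this fit cannot tell them apart. Leaving out 1 library left 1 lower gene without CTRL replicate 1, 13 without CTRL replicate 2, 5 without AngII replicate 1, 12 without either AngII+2W library and 24 without either AngII+3W library. In tissue extracts fewer cells of a type and less RNA per cell cannot be told apart.

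**Figure D4:**
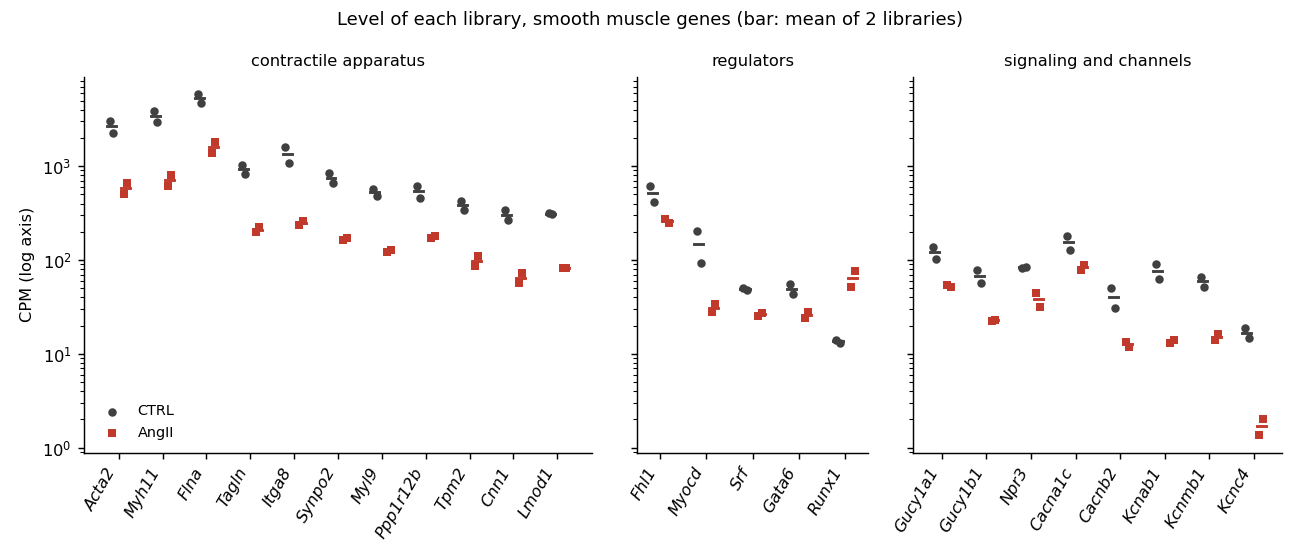
CPM of each library (log axis) for smooth muscle genes in 3 panels, with CTRL as dark circles, AngII as red squares and a bar at the mean of 2 libraries. In each gene shown except Runx1 both AngII libraries lie below both CTRL libraries, and Runx1 lies above.

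The promoters of 4 genes that were lower in AngII are shown because CArG boxes bear on the list. They are the 250 bases before the transcription start in RefSeq (GRCm38.p6), 5′ to 3′ on the strand of the gene, with capitals for a CArG box or for the same sequence with 1 C or G among its inner bases. Acta2 lies at chr19:34255374-34255623 on the reverse strand, Myl9 at chr2:156775214-156775463 on the forward strand, Srf at chr17:46556163-46556412 on the reverse strand, and Vcl, which encodes the adhesion protein vinculin, at chr14:20929148-20929397 on the forward strand.
Acta2: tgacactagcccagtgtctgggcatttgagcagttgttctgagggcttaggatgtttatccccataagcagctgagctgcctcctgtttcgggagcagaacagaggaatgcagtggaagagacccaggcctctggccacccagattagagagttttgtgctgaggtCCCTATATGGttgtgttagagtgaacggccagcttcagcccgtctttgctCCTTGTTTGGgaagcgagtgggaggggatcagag
Myl9: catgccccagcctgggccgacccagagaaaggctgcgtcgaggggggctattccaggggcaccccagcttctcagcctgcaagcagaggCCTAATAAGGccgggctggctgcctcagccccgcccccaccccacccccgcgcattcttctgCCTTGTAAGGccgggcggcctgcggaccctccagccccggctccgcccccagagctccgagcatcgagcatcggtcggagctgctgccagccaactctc
Srf: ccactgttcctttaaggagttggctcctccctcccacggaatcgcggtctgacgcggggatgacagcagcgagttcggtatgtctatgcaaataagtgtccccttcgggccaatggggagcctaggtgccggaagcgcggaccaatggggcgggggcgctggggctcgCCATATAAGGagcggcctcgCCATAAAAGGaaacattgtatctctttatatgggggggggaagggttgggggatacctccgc
Vcl: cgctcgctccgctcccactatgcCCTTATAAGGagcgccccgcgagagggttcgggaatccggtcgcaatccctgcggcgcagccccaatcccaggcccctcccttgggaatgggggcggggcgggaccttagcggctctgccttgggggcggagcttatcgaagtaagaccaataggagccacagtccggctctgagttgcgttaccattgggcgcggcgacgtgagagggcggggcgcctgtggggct
Acta2 held no exact CArG box here and 2 of the relaxed form, which begin at -84 and -34 from the start. Myl9 held a box at -161 and a relaxed form at -99, Srf held boxes at -82 and -62, and Vcl held a box at -227. These 4 promoters, each with such a sequence, are examples and do not stand for the contractile list, and Srf is not part of it. An exact box was found in 1.36% of 15837 promoter windows of tested genes (250 bases before to 50 after the start), in 4.63% of 389 windows of lower genes, in 0.879% of 455 windows of higher genes, and in 3 of 27 windows of the contractile list, those of Myl9, Myl6 and Vcl. For the relaxed form the shares were 7.82% of all windows, 10.3% of those of lower genes and 7.69% of those of higher genes. It was in 4 of the 27 windows of the contractile list (14.8%). The AP-1 sequence TGACTCA, on either strand, was in 4.17% of all windows, 4.84% of those of higher genes and 3.86% of those of lower genes, and the E box CACGTG in 8.99%, 4.84% and 6.17%. These are matches of letters and not measured binding. Promoters of 12566 tested genes were matched by symbol, 283 of them lower and 372 higher.

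Among 25 regulators of the smooth muscle state, 4 fell and 1 rose, with a median of -0.36. Myocd (myocardin) was at 203 and 94.0 CPM in CTRL and 27.9 and 33.8 CPM in AngII, so that the CTRL libraries differed from each other by more than the AngII libraries. Cardiac muscle genes took 0.567% and 0.264% of counts in the same CTRL libraries, and whether these differences are linked was not tested. Srf, the DNA-binding partner of myocardin, changed less, from 50.7 and 48.4 CPM to 25.5 and 27.3 CPM (log2 fold change -0.91, FDR 0.0208). Gata6, a transcription factor of VSMCs, fell by 0.92 and Fhl1, a cofactor with LIM domains, by 0.97. Runx1, a transcription factor of blood and mesenchymal cells, was the gene of this list that rose, from 14.2 and 13 CPM to 52.1 and 75.8 CPM (log2 fold change 2.24, standard error 0.276, FDR 0.00971). Runx2, related to it and known for bone formation, had 3.51 and 2.58 CPM in CTRL and 6.10 and 9.71 CPM in AngII and did not pass (FDR 0.0568).

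Pathways of relaxation held lower genes as well. In the list of cGMP signaling, the route by which nitric oxide and natriuretic peptides relax smooth muscle, 7 of 18 genes fell and none rose (median -0.82). Both subunits of the soluble guanylate cyclase were among them. Gucy1b1 had 79.2 and 57.0 CPM in CTRL and 22.6 and 22.9 CPM in AngII (FDR 0.00757), and Gucy1a1 138, 103, 54.8 and 52.0 CPM. Npr1, a natriuretic peptide receptor that makes cGMP, fell by 0.75 on the log2 scale, Npr3, the clearance receptor, by 1.14, and Prkg1, the kinase that cGMP activates, by 0.88. Nos3, the endothelial nitric oxide synthase, was not among them, at 52.6, 51.9, 43.8 and 57.6 CPM (chosen after its values were seen).

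Ion channels set the tone of VSMCs through membrane potential and calcium entry. Of 17 potassium channel genes, 5 fell and none rose. Kcnc4, a voltage-gated channel, was at 18.9 and 14.6 CPM in CTRL and 1.35 and 2.04 CPM in AngII, and Kcnab1, an auxiliary subunit of such channels, at 89.8 and 62.5 CPM against 13.2 and 13.9 CPM. Kcnmb1, the smooth muscle subunit of the calcium-activated channel, fell by 1.97, Kcnq5 by 1.08 and Kcna2 by 0.96. In calcium handling 3 of 24 genes fell, all of them parts of voltage-gated calcium channels. They were Cacna1c, the pore of the L-type channel (179, 129, 79.1 and 87.4 CPM), Cacna1d and the auxiliary subunit Cacnb2. The median of this list moved from -0.63 to -0.20 with cardiac muscle genes as a covariate, and 2 genes were then lower. Of 20 vasoactive receptors and their partners, 4 fell and none rose. Adra1d, the adrenergic receptor α1D of large arteries, had 26.8 and 36.4 CPM in CTRL and 7.12 and 7.81 CPM in AngII. Ramp1, which forms the receptor of calcitonin gene-related peptide with its partner, had 21.4, 20.2, 4.64 and 5.16 CPM, and the serotonin receptor Htr2a fell by 1.49.

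In the renin-angiotensin system itself, 4 of 21 genes rose and none fell (median 0.30). Agtr2, the type 2 AngII receptor on the X chromosome (21484544 to 21489164, forward strand), had 0 counts in both CTRL libraries and 29 and 31 counts in the AngII libraries. Against a floor of 3 counts per library, it was at least 10.6-fold higher in AngII (FDR 0.0269). At 1.56 and 1.47 CPM its level was still low. The type 1 receptor Agtr1a, which was chosen after its values were seen, had 9.11 and 10.2 CPM in CTRL and 10.8 and 13.4 CPM in AngII (log2 fold change 0.33, standard error 0.247, FDR 0.528). The other 3 were peptidases that act on angiotensins, with Enpep at 29.7, 33.6, 60.7 and 51.8 CPM, Anpep at 33.3, 26.7, 68.6 and 131 CPM, and Prcp at 24.1, 23.2, 40.4 and 52.5 CPM.

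Matrix genes formed a large group of higher genes. Of 38 collagen genes, 12 rose and 2 fell (median 0.77), and in 23 both AngII libraries lay above both CTRL libraries. The fibrillar collagens of the wall were the most abundant. Col1a1 had 1358 and 827 CPM in CTRL and 6635 and 11170 CPM in AngII (log2 fold change 3.03, standard error 0.585, FDR 0.0322), and Col3a1 had 1817 and 1244 CPM against 8387 and 13388 CPM. Col11a1, a minor fibrillar chain known from cartilage, rose from 1.22 and 0.705 CPM to 37.7 and 68.3 CPM (fitted 55.0-fold). Short-chain collagens of the type VIII network, which VSMCs and endothelium make in injured arteries, rose together, Col8a1 from 16.2 and 15.8 CPM to 273 and 231 CPM and Col8a2 from 3.94 and 2.44 CPM to 24.7 and 18.4 CPM. Col12a1, which decorates fibrils, rose by 2.70 on the log2 scale. The 2 that fell were Col19a1 and the basement membrane chain Col4a6, by 1.87 and 1.57. Without AngII replicate 1, 7 collagens were higher, without CTRL replicate 2 there were 4, without CTRL replicate 1 none, without either AngII+2W library 5 and without either AngII+3W library 17.

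Of 29 genes for collagen processing, 3 rose and none fell (median 0.49). They were P4ha3, a prolyl hydroxylase subunit (0.584, 0.940, 9.66 and 12 CPM), the crosslinking oxidase Loxl2 and Pcolce, an enhancer of propeptide cleavage. None of 37 genes of the endoplasmic reticulum and secretion passed the edgeR test (median 0.20), where 10 had an unadjusted p below 0.05 and DESeq2 called 2 higher and 1 lower. In the elastic fibre 2 of 17 rose. Fbn2, the fibrillin of developing vessels, was at 1.51 and 1.36 CPM in CTRL and 19.9 and 26.5 CPM in AngII (log2 fold change 4.01, FDR 0.00532), and Mfap2, a microfibril protein, rose by 2.35. Eln, which encodes elastin, had 2217 and 2415 CPM in CTRL and 1117 and 2071 CPM in AngII, a difference within the spread (FDR 0.625).

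Matricellular proteins are secreted into the matrix and signal to cells, and 6 of 23 rose and none fell (median 0.80). Tnn, which encodes tenascin N and lies on chromosome 1 (160085029 to 160153580, reverse strand), had 2 and 0 counts in CTRL and 223 and 359 counts in AngII, a ratio of 307 with a 95% counting interval from 84.6 to 2540. Cthrc1, a secreted protein of activated fibroblasts, rose from 0.584 and 0.705 CPM to 27.8 and 30.6 CPM, and Ccn4 from 4.24 and 1.83 CPM to 20.7 and 27.0 CPM. Sparc, which binds collagen, was abundant throughout, at 1257, 1042, 2544 and 3317 CPM. Thbs4, a thrombospondin, rose by 3.42. Spp1 (osteopontin) passed with an FDR of 0.0497 and was uneven, at 0.828 and 0.376 CPM in CTRL and 3.99 and 110 CPM in AngII, so that replicate 2 set most of its change.

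Of 29 genes for proteoglycans and hyaluronan, 6 rose and none fell (median 0.68). Lum, the keratan sulfate proteoglycan lumican, had 37.2 and 21.3 CPM in CTRL and 204 and 234 CPM in AngII. Aspn, Sdc1, Has2 and Prg4 also rose, the last of these, the lubricant proteoglycan 4, from 6.87 and 10.6 CPM to 70.1 and 73.2 CPM. Dcn (decorin) had 378, 250, 647 and 868 CPM and did not pass (FDR 0.124). Among 29 matrix proteases and inhibitors, 9 rose and 1, Mmp17, fell. The metalloproteases Adamts12 (41.8, 43.1, 109 and 131 CPM) and Adam12 (46.8, 58.3, 144 and 159 CPM) were among the genes with the smallest FDR of the comparison (0.00532). The cathepsins Ctsk and Ctss rose by 2.86 and 2.01, and Mmp19, whose exons overlap a gene on the opposite strand, by 1.12. Mmp2, the gelatinase A, rose from 78.2 and 53.7 CPM to 284 and 502 CPM, and Timp1, an inhibitor of metalloproteases, from 2.63 and 2.44 CPM to 20.8 and 41.4 CPM.

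**Figure D5:**
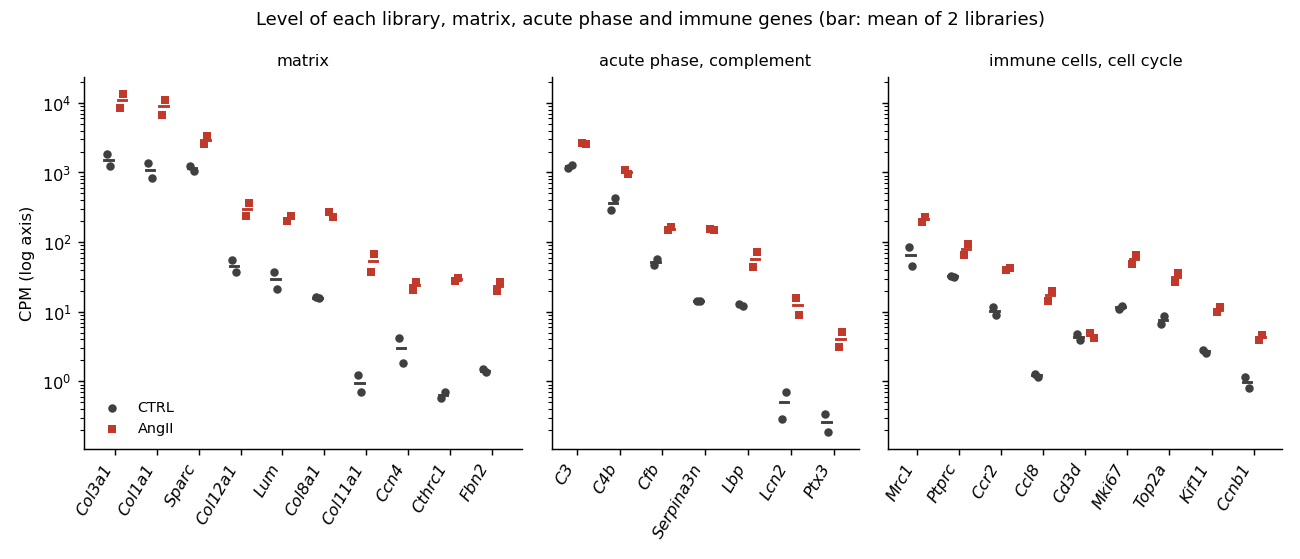
CPM of each library (log axis) for matrix, acute phase, complement, immune and cell cycle genes in 3 panels, with CTRL as dark circles, AngII as red squares and a bar at the mean of 2 libraries. AngII lies above CTRL in each gene shown except the T cell gene Cd3d, where the libraries overlap.

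Receptors for matrix went both ways, with 4 of 19 integrin genes lower and 1 higher. Itga8, given above, Itgb3 (99.0, 103, 32.1 and 47.9 CPM), Itga3 and Itga7 fell, while Itga2, a collagen receptor, rose from 4.14 and 4.65 CPM to 9.77 and 13.3 CPM. In TGF-β signaling 1 of 28 genes rose and 2 fell. Fst, which encodes the activin antagonist follistatin, had 13.7 and 14.6 CPM in CTRL and 45.2 and 32.5 CPM in AngII, and the inhibitory Smad7 and Smad6 fell by 0.99 and 0.83. The ligand Tgfb1, chosen after its values were seen, had 28.6, 33.7, 37.6 and 49.2 CPM (FDR 0.187). In BMP signaling 1 of 27 rose, the modulator Bmper (11.5, 13.6, 40.5 and 51.6 CPM), and 3 fell, the receptor Bmpr1b, the effector Smad9 and the target Id1. Of 29 Wnt genes, 5 rose and 3 fell. The ligand Wnt2, the modulators Sfrp4, Dkk2 and Rspo2 and the receptor Lgr5 rose by 1.97 to 2.61 on the log2 scale. Its relative Lgr6 fell, from 256 and 224 CPM to 68.1 and 58.8 CPM, as did Nkd1 and Sost, the secreted inhibitor sclerostin (276, 244, 44.5 and 45.2 CPM). Of 18 Notch genes 1 passed (5.56%, near the 5.10% of all genes). It was Heyl, a target expressed in VSMCs, which fell by 1.14. Of 14 genes of insulin-like growth factors none passed the edgeR quasi-likelihood test, while 8 had an unadjusted p below 0.05 and DESeq2 called 4 higher and 1 lower. Igf1 was at 129, 58.1, 282 and 269 CPM (FDR 0.0688), and 3 genes of this list passed without either AngII+3W library.

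Acute phase genes respond to cytokines in liver and in other tissues. Of 23, 8 rose and none fell (median 1.14), and 18 had both AngII libraries above both CTRL libraries. Serpina3n, a secreted protease inhibitor, had the smallest p of the whole comparison, at 14.1 and 14.1 CPM in CTRL and 153 and 147 CPM in AngII. Lcn2 (lipocalin 2), which binds bacterial siderophores, rose from 0.292 and 0.705 CPM to 15.8 and 9.09 CPM, Ptx3 (pentraxin 3) from 0.341 and 0.188 CPM to 3.13 and 5.11 CPM, and Lbp, which binds lipopolysaccharide, from 13.1 and 12 CPM to 43.4 and 72.5 CPM. Wfdc21, a secreted protein outside the list, had 0.243 and 0.0470 CPM in CTRL and 21.2 and 13.9 CPM in AngII. Hp (haptoglobin) had 727, 860, 1929 and 938 CPM, and its FDR was 0.172. In the complement system 8 of 22 rose and none fell (median 1.17). The central component C3 had 1168 and 1279 CPM in CTRL and 2686 and 2594 CPM in AngII, C4b 286, 433, 1081 and 940 CPM, and C3ar1, a receptor for a fragment of C3, 9.88, 6.77, 25.3 and 34.1 CPM. Cfb rose by 1.58, with reads that it may share with an overlapping gene of near-identical transcript.

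Of 30 macrophage genes 12 rose and none fell (40%, against 2.90% of all genes higher, median 1.55). In 28 both AngII libraries lay above both CTRL libraries, as in 24.4% of all genes. Adgre1, which encodes the F4/80 antigen, had 15.9 and 12.7 CPM in CTRL and 42.3 and 58.9 CPM in AngII, and Cd68 5.16, 4.98, 15.2 and 29.2 CPM. Mrc1, the mannose receptor of resident macrophages, rose from 84.4 and 45.2 CPM to 193 and 232 CPM, and Ccr2, the chemokine receptor of inflammatory monocytes, from 11.6 and 9.12 CPM to 39.2 and 42.5 CPM. Ptprc, which encodes the CD45 antigen of leukocytes, had 32.9, 31.5, 64.8 and 94.2 CPM (log2 fold change 1.30, FDR 0.0125). The lysozyme gene Lyz2 was at 127, 109, 217 and 481 CPM and missed the threshold (FDR 0.0577). Without CTRL replicate 1 no macrophage gene passed, without CTRL replicate 2 there was 1, without either AngII+2W library there were 4, and without either AngII+3W library there were 22. Chemokines and their receptors held 9 higher genes of 35 and no lower one. Ccl8 had 1.27 and 1.17 CPM in CTRL and 14.5 and 19.9 CPM in AngII, and Cxcl12, made by stromal cells, had 110, 121, 251 and 250 CPM.

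Neither list of lymphocyte genes gave a call. None of 14 T cell genes and none of 12 genes of B and plasma cells passed the edgeR quasi-likelihood test. At an unadjusted p below 0.05 there were 1 and 3, and DESeq2 called none and 1. T cell genes took between 0.00231% and 0.00330% of counts in the 4 libraries. Cd3d had 98, 83, 91 and 90 counts. The immunoglobulin gene Ighg2b lies outside these lists, and other constant region genes may share its reads. It passed the edgeR test (FDR 0.00532), with 0.0974 and 0.235 CPM in CTRL and 5.13 and 6.06 CPM in AngII. Jchain was uneven in AngII, with 11.7 and 45.4 CPM against 8.76 and 12.5 CPM in CTRL. Of 12 genes of class II antigen presentation 3 rose. They were Tmem176a, Tmem176b and Ctss, while Cd74, the invariant chain, had 152, 145, 229 and 236 CPM (FDR 0.277). No NF-κB component or target passed the edgeR quasi-likelihood test among 23 genes (median 0.09), where 5 had an unadjusted p below 0.05 and DESeq2 called 2 higher. Icam1, the endothelial adhesion molecule, had 16.8 and 17.4 CPM in CTRL and 16 and 23.7 CPM in AngII, so that the groups overlapped (log2 fold change 0.22, standard error 0.229, FDR 0.669). Of 28 interferon-stimulated genes, Ddx60 and Iigp1 rose by 1.07 and 0.61 (7.14% called, against 5.10% of all genes), and the median was 0.51.

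Of 24 endothelial genes 1 passed (4.17%, against 5.10% of all genes), with a median of 0.14. It was Plvap, a protein of fenestrated endothelium, at 19.6, 19.1, 42.1 and 41.0 CPM, and Pecam1 had 261, 237, 215 and 242 CPM. Of 20 genes listed for adventitial fibroblasts 3 rose (median 0.74). They were Lum, given above, and the surface antigens Ly6a and Ly6c1, the latter with a near-identical copy. The fibroblast markers Pdgfra, Pi16 and Dpt did not pass (FDR 0.298, 0.42 and 0.116), nor did Dcn, given above.

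The cell cycle list had the largest share of higher genes of all lists, 19 of 40 (47.5%, against 2.90% of all genes), with none lower and a median of 1.21. In 36 of the 40 both AngII libraries lay above both CTRL libraries. Mki67, which encodes the proliferation antigen Ki-67, had 11.0 and 12.3 CPM in CTRL and 48.6 and 66.3 CPM in AngII (log2 fold change 2.30, standard error 0.213, FDR 0.00532). Top2a, the topoisomerase of dividing cells, rose from 6.77 and 8.60 CPM to 26.6 and 36.3 CPM, Kif11, a motor of the mitotic spindle, from 2.87 and 2.54 CPM to 9.77 and 11.7 CPM, and Ccnb1 (cyclin B1, with pseudogene copies) from 1.17 and 0.799 CPM to 3.99 and 4.69 CPM. Ccnd1 (cyclin D1) rose by 0.97. Rrm1, a subunit of ribonucleotide reductase, was at 29.5, 31.8, 35.8 and 36.8 CPM and did not pass. With 1 library left out, 6 genes were higher without CTRL replicate 2 or AngII replicate 1, none without CTRL replicate 1, 9 without either AngII+2W library and 20 without either AngII+3W library. In the list of p53 and senescence 1 of 19 rose (Plk2) and 1 fell (Trp53inp1, 210, 150, 94.0 and 87.7 CPM). The share called was 10.5%, against 5.10% of all genes.

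Heat shock proteins are chaperones that cells make under stress. Of 27, 7 fell and none rose (median -0.62), and in 21 both AngII libraries lay below both CTRL libraries. The small heat shock protein Hspb1 was steady within groups, at 153 and 146 CPM in CTRL and 54.1 and 48.4 CPM in AngII. Its transcript has a near-identical pseudogene. The inducible Hspa1a and Hspa1b are near-identical to each other, so that their reads cannot be fully separated, and their CTRL libraries were far apart. Hspa1a had 296 and 66.2 CPM in CTRL and 13 and 19.7 CPM in AngII, and Hspa1b 343, 66.9, 13.4 and 18.5 CPM. Hspa1l and Hspa2 fell by 2.55 and 1.45, and Hsp90aa1, with 398, 307, 252 and 207 CPM, did not pass (FDR 0.0856). In the immediate early genes, which respond to stimuli within minutes and also to tissue handling, 3 of 21 fell (median -0.78). They were Atf3 (74.4, 34.2, 14 and 10.6 CPM), Btg2 and Zfp36. Of 19 clock genes Per2 fell, from 62.7 and 49.3 CPM to 18.3 and 18.8 CPM, as did Nr1d1, whose exons overlap a gene on the opposite strand. The hour at which tissue was taken is not given in the sources used here, and its part in these values was not tested. Of 30 chromatin modifiers 2 passed (6.67%, against 5.10% of all genes). They were the histone deacetylases Hdac9 (60.3, 32.9, 16.7 and 17.6 CPM) and Hdac11, which fell.

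Several of the strongest changes lay outside the lists, which held 191 of the 877 genes that passed. Chl1, a neural cell adhesion molecule, rose from 8.96 and 7.33 CPM to 47.8 and 63.2 CPM, Lhfpl2 from 9.40 and 9.02 CPM to 33.7 and 49.3 CPM, and Nav3, a protein of microtubule ends, from 17.8 and 19.5 CPM to 51.9 and 50.7 CPM. Among the lower genes, Ctnna3, an α-catenin of cell junctions, went from 42.6 and 32.0 CPM to 7.66 and 7.86 CPM, and Tacc2, a centrosomal protein, from 348 and 289 CPM to 99.2 and 97.6 CPM. Mtus2 and Rasl12, a small GTPase, fell by 2.13 and 1.30. Vwc2, a secreted BMP antagonist, had 15.3, 11.7, 1.73 and 2.51 CPM. The largest falls among genes above 1 CPM were those of the glutamate receptor subunit Gria1 (3.90, 2.44, 0.270 and 0.0947 CPM) and of Hspa1b, Coch, Hspa1a and Shisa7, with log2 fold changes between -3.38 and -4.11.

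The levels of these genes in the later groups can be set beside the values above, with differences that were not tested here. Tnn was at or below 0.107 CPM in all 4 libraries taken 2 or 3 weeks after the infusion, and Agtr2 at or below 0.187 CPM. Serpina3n had 22 and 21 CPM in AngII+2W and 8.81 and 14.4 CPM in AngII+3W, against 14.1 CPM in both CTRL libraries. Acta2 had 1183 and 894 CPM in AngII+2W and 349 and 550 CPM in AngII+3W, all below the CTRL libraries.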

How the data were processed

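Total RNA of aortic tissue was depleted of ribosomal RNA and sequenced by the study. The authors estimated transcript levels with Salmon against GRCm38.p6 and deposited estimated counts per gene, already in whole numbers; whether strand was used in counting is not given in the sources used here. The deposited table held 35896 genes, of which 11469 were 0 in every library. From these expected counts, all 8 libraries were fitted in 1 model with a coefficient per group (edgeR 4.0.16, R 4.3.3), after edgeR's filter on low counts (17182 genes left) and TMM scaling. The quasi-likelihood test of AngII against CTRL was adjusted by Benjamini-Hochberg over all genes, with 4 residual degrees of freedom. CPM are counts per 1000000 on TMM-scaled library sizes. A floor of 3 counts corresponded to between 0.143 and 0.160 CPM on unscaled totals. Count intervals cover counting error only. An exact permutation test of 2 against 2 libraries cannot go below a two-sided p of 0.33, so none was used. The scripts were tested on simulated data.

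The comparison, gene lists and tests were chosen with earlier results of these data known. Named genes were the 12 higher and 12 lower with the smallest p and the 5 and 5 with the largest change above 1 CPM in a group (without predicted genes, pseudogenes and immunoglobulins), in each list the 4 with the smallest p and the 2 with the highest counts, genes named in the study's text, and cell type markers. Chosen after their values were seen were Agtr1a, Mmp2, Timp1, Tgfb1, Kcnq5, Itga7, Lgr5, Rspo2, Dkk2, Nkd1, Col19a1, Col4a6, Mmp17, Vcl, Myl6, Npr1, Prkg1, Has2 and Nos3. Promoters came from RefSeq, and near-identical transcripts were searched with BLAST 2.17.0. Besides Mmp19 and Nr1d1, other named genes have exons that overlap a gene on the opposite strand, among them Vcl, Ccnd1, Cacna1d and Cacnb2. If strand was not used in counting, such genes may share reads. Other scalings, filters, tools (DESeq2 1.42.0, limma 3.58.1), covariates and left-out libraries were tried. Some genes are not reported here.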

Additional observations from a re-analysis of the deposited data

How the results depend on the processing

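The 877 genes kept their direction under each setting in which they were tested (809 were tested with at least 10 counts in every library, and 876 with the CTRL and AngII libraries alone), which on leaving out a CTRL or AngII library follows from groups that do not overlap. The number past the threshold was less stable. DESeq2 gave 1588 genes (897 higher, 691 lower) and edgeR's likelihood ratio test 1713 (984 and 729). The cardiac muscle covariate gave 310 higher and 424 lower, and the adipocyte covariate 500 higher and 237 lower, against 499 and 378. Leaving out 1 library gave between 0 and 1504 genes, between 0 and 783 higher and between 0 and 726 lower. Other scalings, filters and tools, and a fit of the CTRL and AngII libraries alone (1149 genes), stayed within 1.5 times the count. Same-numbered libraries come from different mice. Their deviations from group means correlated at 0.011 between CTRL and AngII, the lowest of all pairs of groups, and at up to 0.45 (AngII and AngII+3W). A replicate block over all groups gave 874 genes (487 higher, 387 lower), 726 of them shared. The cause of these differences was not tested.

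Among named genes that did not pass, the log2 fold change changed sign for Myh6 (0.46), and for Icam1 (-0.02), with the cardiac covariate, and for Nos3 (0.12) and Pecam1 (0.05) with the adipocyte covariate. On leaving out 1 library it ranged from -0.22 to 0.18 for Adipoq, from -0.07 to 0.23 for Cd3d, from -0.09 to 0.47 for Icam1, from -0.09 to 0.78 for Myl2 and from -0.25 to 0.14 for Nos3. The median of 15 lists changed sign in some setting, those of T cells, adipocytes, endothelium and TGF-β, BMP and Wnt signaling among them.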

Other observations

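Further gene groups were measured in the same comparison. Of 12 genes listed for brown adipocytes 1 rose and 1 fell. Elovl3, a fatty acid elongase of brown fat, had 3.21 and 3.95 CPM in CTRL and 48.0 and 26.5 CPM in AngII, and Prdm16, a regulator of brown fat, fell by 0.84 on the log2 scale. Ucp1, the uncoupling protein, was at 761, 1116, 1878 and 1332 CPM. Of 17 lipogenic enzymes 1 passed (5.88%, against 5.10% of all genes). It was Me1, which has a near-identical copy and rose by 0.90. None of 15 adipocyte genes passed the edgeR test (median 0.01), where 2 had an unadjusted p below 0.05 and DESeq2 called 1 higher and 1 lower. Of 25 oxidases and antioxidants 2 rose (8% called, against 5.10% of all genes), the peroxidases Gpx7 and Gpx8 of the secretory pathway, by 1.10 and 0.94.

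Of 17 genes of cartilage and calcification 1 rose, Spp1 (5.88% called, against 5.10% of all genes). Of 22 cytosolic actomyosin genes S100a10 rose and Dstn, an actin-severing protein, fell (9.09% called), and the median was 0.12. None of 13 mitochondrial genome genes, 77 nuclear genes of oxidative phosphorylation, 82 ribosomal protein genes and 10 skeletal muscle genes passed the edgeR test, with medians of -0.20, -0.23, -0.00 and -1.30. In the same order, 0, 3, 1 and 0 had an unadjusted p below 0.05, and DESeq2 called 0, 1, 0 and 1.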
